A study of Rattus norvegicus with 16 samples.

Results

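The Rab GTPases, the largest family of small GTPases, were followed in the hippocampus and blood of rats with a traumatic brain injury (TBI). Members were all genes whose symbol is Rab with a number and at most 1 further letter, which gave 54 of the 16638 single symbols in the deposited tables. Of these, 51 had a row of their own in both tissues, Rab40c and Rab43 in the hippocampus alone, and Rab4b in blood alone. In the other tissue each of these 3 shares a row with another gene. The study used male Sprague Dawley rats, with no genetic change named in the labels. Libraries came from 4 groups of 4 samples each: CA1 TBI, CA1 sham, WBC TBI and WBC sham, where CA1 is the hippocampal field of that name and WBC are the white blood cells. TBI rats received a fluid percussion injury and sham rats the surgery without it. All rats were given learning tests 1 week after surgery and were then killed for tissue. The labels do not say whether samples with equal numbers come from the same rat, nor which percussion strength was used.

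A Rab protein switches between a GDP-bound form, held in the cytosol by GDI proteins, and a GTP-bound form on a membrane. Exchange factors load the GTP, effectors such as tethers and motors read it, and TBC-domain proteins end the signal by stimulating its hydrolysis. Different members mark different compartments: Rab1 and Rab2 the endoplasmic reticulum and Golgi, Rab5 early endosomes, Rab7 late endosomes, Rab11 recycling endosomes, and Rab3 and Rab27 secretory vesicles. Rab3a is best known from the synaptic vesicles of neurons, Rab27a from the granules of cytotoxic lymphocytes and Rab27b from those of platelets.

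The unit throughout is FPKM, a fragment number divided by transcript length and by library size, given in 1 table per tissue. The tables were normalized separately, so tests were made within a tissue, and levels are set across tissues only as ranks. Pyramidal neuron markers summed to 6511 to 6999 FPKM in the CA1 TBI libraries and 6399 to 8336 FPKM in CA1 sham, with Fibcd1, a marker of that field, listed at 0 in all 8. Choroid plexus markers varied from 183 to 2757 FPKM in CA1 TBI and from 21.5 to 1325 FPKM in CA1 sham. In WBC, T cell markers summed to 960 to 1452 FPKM in TBI and 961 to 1296 FPKM in sham. The sums of B cell, monocyte and neutrophil markers also overlapped between groups. All 11 tested B cell markers had a log2 difference below 0, and 10 of 12 tested T cell markers had one above 0. Over all 13413 WBC rows, 6766 lay below 0 and 6647 above. None of these B or T cell markers had an unadjusted p under 0.05. Cytotoxic and NK markers summed to 485 to 768 FPKM in WBC TBI and 407 to 557 FPKM in WBC sham. Of 12 tested, 6 were higher at an unadjusted p under 0.05, where 7.82% of all rows were. Among the blood cell lists, those of red cells and platelets did not overlap between groups and are given beside the results in WBC. The library WBC TBI 1 had the lowest FPKM sum over all rows, 482286, where the other 7 WBC libraries had 612627 to 832725.

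In CA1 the family was expressed broadly and at high levels. The median Rab gene stood at percentile 81.5 of all single symbols in sham CA1, and 40 of 53 members averaged at least 10 FPKM over the 8 libraries. Rab3a, the Rab of synaptic vesicle release, had 470, 492, 521 and 523 FPKM in CA1 TBI and 478, 512, 510 and 505 FPKM in CA1 sham. It alone made up 17.4% of the Rab FPKM sum in sham CA1. Next came Rab6a and Rab6b, which act in traffic out of and back to the Golgi, at sham levels of 237 ± 11.2 and 235 ± 25.5 FPKM (SD, n = 4). Those levels lay within each other's spread, and Rab2a, an endoplasmic reticulum to Golgi Rab, lay within the spread of Rab6b at 218 ± 16.2 FPKM in sham (SD, n = 4). Rab11b (recycling endosome) had 151 FPKM, Rab7a (late endosome) 138 FPKM and Rab1a (endoplasmic reticulum to Golgi) 130 FPKM as sham means in CA1. The ranking went on with Rab5b, Rab10 and Rab5c, at sham means of 94.7, 90.2 and 86.0 FPKM. These 10 genes together held 65.5% of the Rab sum in sham CA1.

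In WBC the ranking differed, though Rab10, Rab7a, Rab5c, Rab11b and Rab2a were among the 10 highest members in both tissues. The median Rab gene stood at percentile 61.9 in sham WBC, and 24 of 52 members averaged at least 10 FPKM. Rab8a, which directs vesicles from the Golgi to the plasma membrane, had 103, 114, 107 and 112 FPKM in WBC TBI and 111, 117, 123 and 115 FPKM in WBC sham. Rab10, which serves a related step, had a sham mean of 107 ± 10.8 FPKM, and Rab24, a Rab linked to autophagy, 104 ± 8.21 FPKM (SD, n = 4). The sham means of Rab8a and Rab24 lay within the SD of Rab10 around its mean. By the smaller sham SD of Rab8a, 4.83 FPKM, Rab10 lay further than 1 SD from Rab8a. Rab8b followed with a sham mean of 89.8 FPKM, Rab7a with 78.3, Rab5c with 77.2, Rab21 with 67.4, Rab11b with 65.9, Rab11a with 64.8 and Rab2a with 63.4 FPKM. The 10 highest members over all WBC libraries held 60.6% of the Rab sum in sham WBC.

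Some members ranked far apart in the 2 tissues. The lower side of most of these gaps lies under 1 FPKM, where a rank says little more than that the gene was hardly detected. Rab15, an early endosome Rab whose CA1 row did not have status OK in every library, had sham means of 75.4 FPKM in CA1 (percentile 93.9) and 0.0634 FPKM in WBC (percentile 34.4). Rab3c and Rab3b, the brain paralogs of Rab3a, stood at percentiles 89.1 and 83.2 in sham CA1, against 33.0 and 28.9 in sham WBC. Rab6b stood at 98.7 in sham CA1 and 43.2 in sham WBC, while its paralog Rab6a stood at 98.7 and 93.5. Rab36 stood at percentile 68.0 in sham CA1 and was listed at 0 in every WBC sham library. In the other direction, Rab19 stood at percentile 23.1 in sham CA1 and 80.4 in sham WBC, and Rab25, an epithelial relative of Rab11, was listed at 0 in all CA1 sham libraries and had 5.72 FPKM in sham WBC. Rab27a had a sham mean of 3.67 ± 0.413 FPKM in CA1 and 44.9 ± 6.05 FPKM in WBC (SD, n = 4), percentiles 48.7 and 91.7. Rab27b stood at 67.1 and 91.4, and Rab20, an endosomal and phagosomal Rab, at 34.0 and 61.0. Of the 51 genes with a row in both tissues, 31 ranked higher in CA1 and 20 in WBC, and Spearman's rho across these genes was 0.41. Those counted for WBC include Rab17, listed at 0 in all libraries, and Rab1b, near 0 in both tissues. Rows at 0 had percentile 8.35 in sham CA1 and 12.4 in sham WBC. The order of Rab17 and Rab1b thus says little of their expression.

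**Figure D1:**
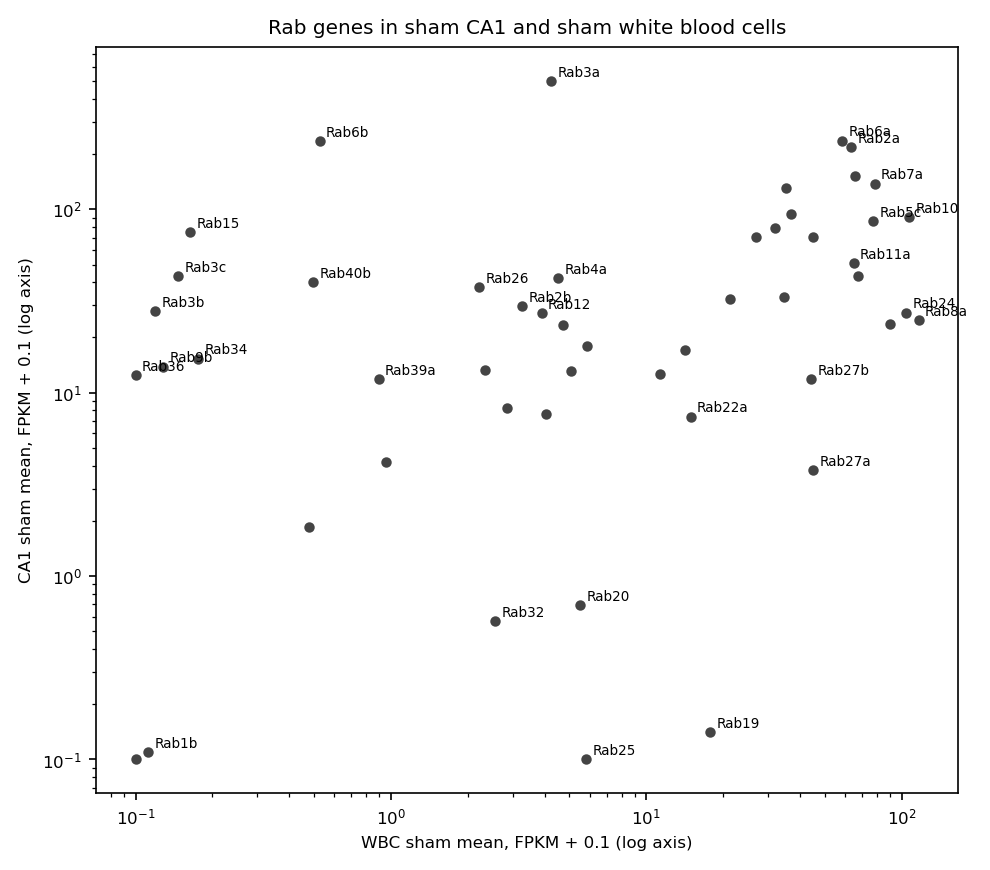
Mean level of each Rab gene in the 4 sham CA1 libraries (vertical axis) and the 4 sham WBC libraries (horizontal axis), as FPKM + 0.1 on log axes, 1 point per gene for the 51 genes with a row in both tables. Rab3a, Rab6b, Rab15 and Rab3c lie high on the CA1 axis and low on the WBC axis, Rab19 and Rab25 the other way. The tables were normalized separately, so only the order within a tissue can be read from the picture.

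Members averaging under 1 FPKM were too low to be tested. In CA1, Rab20, Rab32, Rab19, Rab25, Rab1b and Rab17 averaged under 1 FPKM. In WBC the same was true of Rab39a, Rab6b, Rab38, Rab40b, Rab15, Rab34, Rab3b, Rab3c, Rab36, Rab9b, Rab1b and Rab17. Rab17 was listed at 0 in all 16 libraries. Rab1b, a gene that every cell uses, was listed at or near 0 throughout, so that row may fail to reflect how much Rab1b RNA was there. After the filter, and with Rab15 left out in CA1 because of its status in the authors' output, 46 members were tested in CA1 and 40 in WBC.

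In WBC the Rab FPKM summed over the 52 members were lower after injury, though no single member passed the adjusted threshold. They came to 1051, 1224, 1202 and 1179 in the WBC TBI libraries, against 1374, 1409, 1401 and 1320 in WBC sham. All 4 TBI libraries lay below all 4 sham libraries, with means of 1164 ± 77.5 and 1376 ± 40.4 (SD, n = 4 each). FPKM over all rows summed to 482286, 650424, 832725 and 612627 in WBC TBI, against 763639, 828289, 727296 and 765273 in WBC sham. Those totals overlapped between groups. The Rab sums were not scaled to them, so a drop particular to the family cannot be read from the sums. The count past that threshold in limma was 0 (0 of 40, where 0% of all 13413 rows passed), with adjusted p between 0.131 and 0.960. At an unadjusted p under 0.05, 11 of 40 members (27.5%) were lower in TBI, where 12.5% of all rows were. In the other direction there was 1 member of 40 (2.50%), where 7.82% of all rows were higher. The groups did not overlap for the same 11 members lower (8.63% of all rows) and for the same 1 higher (5.61% of all rows). The log2 difference was below 0 in 31 of the 40 members and in 6766 of all 13413 rows, with medians of -0.08 and -0.003. After quantile normalization 8 members were lower and 2 higher at that p, with a median of -0.04, against 0.05 over all rows. Without WBC TBI 1 the counts were 11 lower and 1 higher. The shares of all rows called under these alternatives are not given here, so these counts cannot be set against them.

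**Figure D2:**
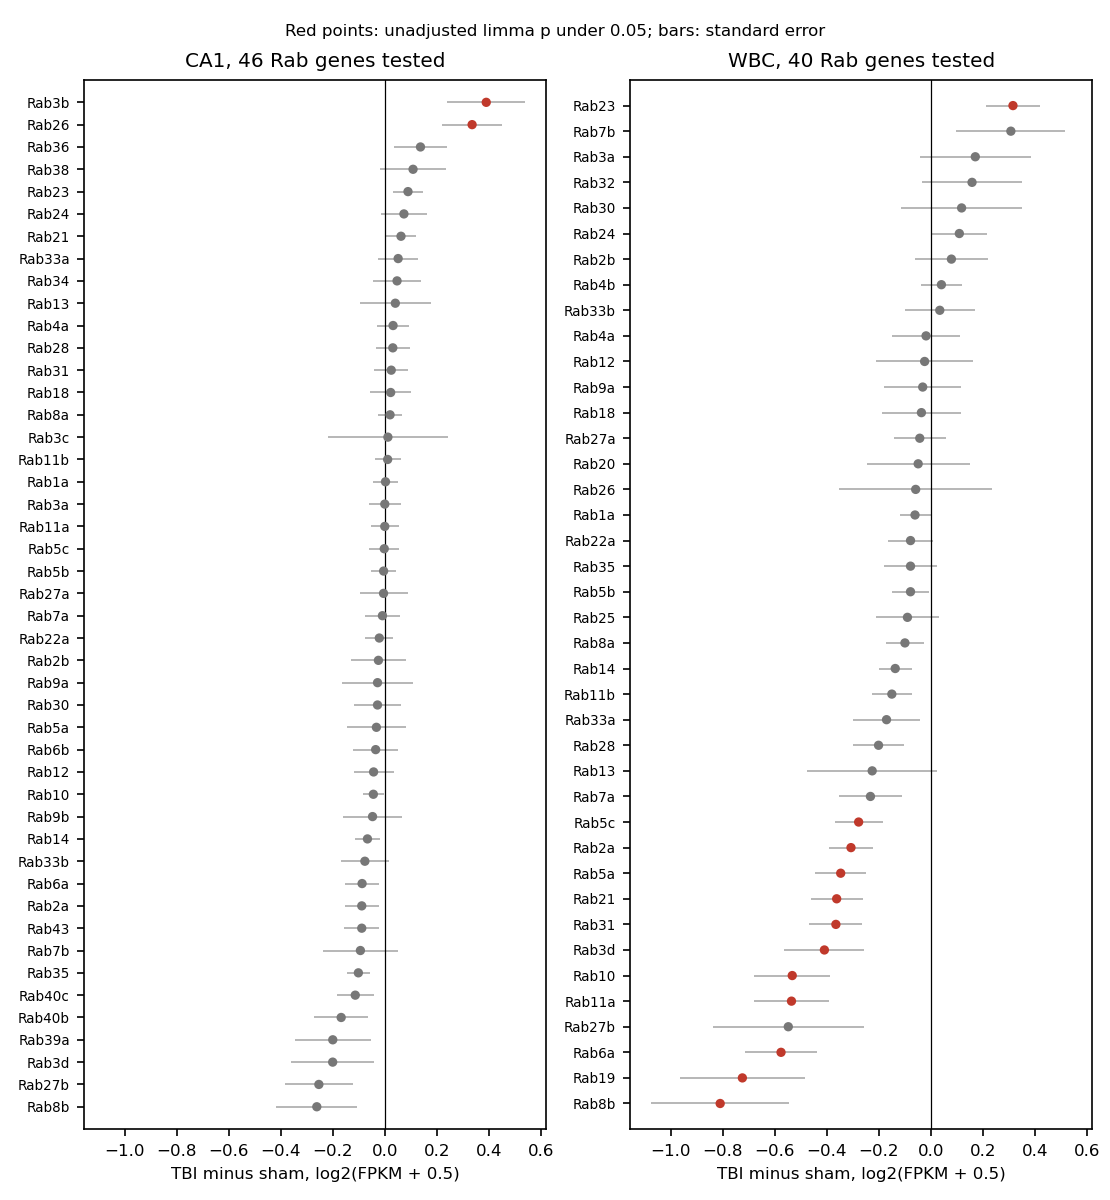
Difference between TBI and sham in log2(FPKM + 0.5) for each tested Rab gene, CA1 on the left (46 genes) and WBC on the right (40 genes), sorted within a tissue. Points are limma estimates with their standard errors, red where the unadjusted p is under 0.05. In WBC 11 red points lie below 0 and 1 above, and in CA1 2 lie above 0 and none below. No point passed the adjusted threshold.

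Markers of other blood components moved with these values. Erythroid and reticulocyte markers summed to 7185, 15571, 16979 and 13062 FPKM in the WBC TBI libraries, against 18085, 27736, 24086 and 21064 FPKM in WBC sham. All 22 tested markers of that list had a log2 difference below 0, and 20 of them an unadjusted p under 0.05. Of all 13413 rows, 6766 lay below 0 and 12.5% were lower at that p. Platelet and megakaryocyte markers summed to 2972, 6679, 8526 and 7956 FPKM in WBC TBI, against 10633, 12416, 9203 and 9793 FPKM in WBC sham, with all 14 tested below 0 and 9 at an unadjusted p under 0.05. WBC TBI 1 had the lowest value of all 8 libraries in all 3 sums. The part of red cell and platelet RNA in the Rab differences was not tested. In bulk samples such as these, fewer cells of a type and less RNA per cell cannot be told apart.

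**Figure D3:**
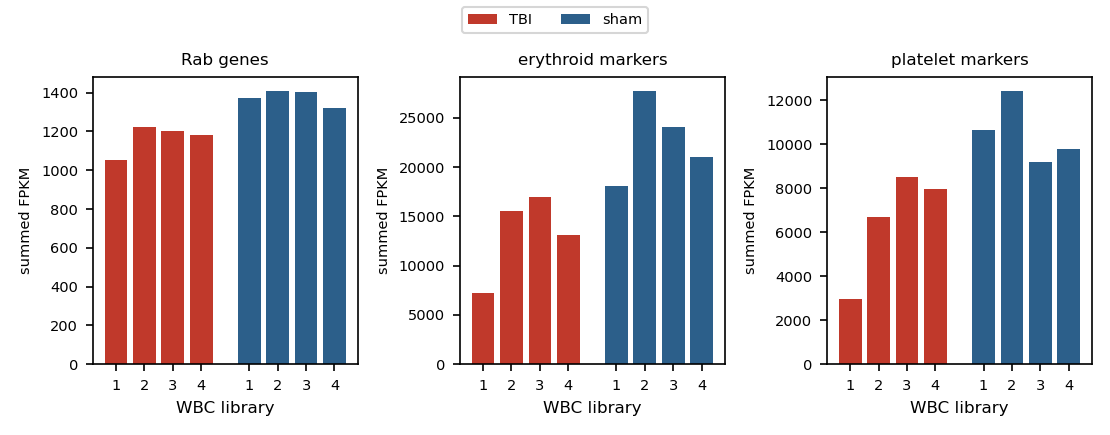
Summed FPKM of the 52 Rab genes (left), the erythroid and reticulocyte markers (middle) and the platelet and megakaryocyte markers (right) in each WBC library, TBI libraries first and sham libraries after them. Each bar is 1 library. All 4 TBI bars are lower than all 4 sham bars in each panel, and TBI 1 is the lowest.

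Among Rabs of the endoplasmic reticulum and Golgi, 3 of 9 tested had an unadjusted p under 0.05 in WBC, all lower in TBI. Of all rows, 12.5% were lower at that p. Rab6a, which governs traffic back from endosomes and the Golgi, had 30.9, 37.4, 42.6 and 45.6 FPKM in WBC TBI, against 60.7, 56.4, 66.4 and 49.6 FPKM in WBC sham. The groups did not overlap, and the log2 difference was -0.58 ± 0.14 (SE, limma adjusted p = 0.131), the smallest p of the family. Rab2a had 44.9, 54.7, 52.1 and 53.4 FPKM in WBC TBI, against 62.6, 65.7, 66.2 and 59.1 FPKM in WBC sham. Its difference was -0.31 ± 0.08 (SE, limma adjusted p = 0.141), again without overlap, and -0.11 after quantile normalization. Rab19, a Golgi-associated member, had 8.45, 12.2, 12.1 and 8.20 FPKM in WBC TBI, against 12.9, 26.9, 17.3 and 13.7 FPKM in WBC sham. The sham libraries of Rab19 ranged widely, from 12.9 to 26.9 FPKM, and the difference was -0.72 ± 0.24 (SE, limma adjusted p = 0.162). Rab2b and Rab30, other Golgi members, had differences of 0.08 and 0.12, both smaller than their SE of 0.14 and 0.23.

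All 4 Rabs of the route from the Golgi to the plasma membrane had estimates below 0 in WBC, and 2 had an unadjusted p under 0.05. Of all 13413 rows, 6766 lay below 0 and 12.5% were lower at that p. Rab8b had the widest difference of the family, with 27.6, 60.2, 69.2 and 57.4 FPKM in WBC TBI, against 90.3, 98.9, 94.3 and 75.5 FPKM in WBC sham. TBI 1 was far below the other TBI libraries, and the groups did not overlap. The log2 difference was -0.81 ± 0.26 (SE, limma adjusted p = 0.160), and it was -0.52 without TBI 1. The paralog Rab8a, at a higher level, differed by -0.10 ± 0.07 (SE), and its groups overlapped. Rab10 had 55.2, 87.2, 78.2 and 77.9 FPKM in WBC TBI, against 108, 122, 99.7 and 98.5 FPKM in WBC sham. It did not overlap either (-0.53 ± 0.15, SE, limma adjusted p = 0.142), and its difference was -0.28 after quantile normalization.

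Early endosome Rabs were below 0 in 7 of 7 tested members in WBC, with an unadjusted p under 0.05 in 4. Over all 13413 rows, 6766 were below 0 and 12.5% were lower at that p. Rab5a, which drives fusion of early endosomes, had 18.9, 23.2, 22.0 and 19.9 FPKM in WBC TBI, against 25.5, 30.7, 27.1 and 24.2 FPKM in WBC sham (log2 -0.35 ± 0.10, SE, limma adjusted p = 0.143). The paralog Rab5c had 57.5, 68.8, 64.0 and 63.9 FPKM in WBC TBI, against 73.9, 75.3, 88.5 and 71.2 FPKM in WBC sham (log2 -0.28 ± 0.09, SE, limma adjusted p = 0.163). Neither gene overlapped between groups, whereas Rab5b did (34.8 ± 1.51 FPKM in TBI and 36.8 ± 2.59 FPKM in sham, SD, n = 4 each). Rab21, which accompanies integrins into the cell, had 53.2, 55.3, 52.6 and 47.5 FPKM in WBC TBI, against 68.1, 56.5, 75.0 and 69.9 FPKM in WBC sham. Its highest TBI library lay just under its lowest sham library, sham 2 (log2 -0.36 ± 0.10, SE, limma adjusted p = 0.142). Rab31, which links the Golgi with endosomes, had 16.5, 18.2, 16.3 and 14.2 FPKM in WBC TBI, against 19.5, 24.3, 21.2 and 19.5 FPKM in WBC sham (log2 -0.36 ± 0.10, SE, limma adjusted p = 0.142). After quantile normalization the difference of Rab21 was -0.15, that of Rab5c -0.04 and that of Rab5a -0.27.

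Recycling endosome Rabs were below 0 in 7 of 8 in WBC (6766 of all 13413 rows were). Rab11a alone had an unadjusted p under 0.05 (12.5% of all rows were lower at that p). Rab11a, a regulator of return traffic to the cell surface, had 33.0, 46.6, 51.5 and 49.3 FPKM in WBC TBI, against 72.5, 64.8, 62.7 and 59.2 FPKM in WBC sham. The groups did not overlap, and the difference was -0.54 ± 0.14 (SE, limma adjusted p = 0.139). Rab11b had 59.3 ± 2.89 FPKM in WBC TBI and 65.9 ± 4.45 FPKM in WBC sham (SD, n = 4 each), with overlapping groups. Rab4b, the member above 0, differed by 0.04 ± 0.08 (SE), and this estimate rested on TBI 1, since it was -0.02 without that library.

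Among Rabs of regulated secretion, Rab3d, found on the granules of non-neuronal cells, had 6.19, 9.69, 10.4 and 7.66 FPKM in WBC TBI, against 11.3, 10.6, 10.8 and 12.4 FPKM in WBC sham. The highest TBI library lay just under the lowest sham library (log2 -0.41 ± 0.15, SE, limma adjusted p = 0.194). Rab27b had 15.3, 31.1, 40.4 and 41.5 FPKM in WBC TBI, against 44.3, 46.4, 38.0 and 47.7 FPKM in WBC sham. TBI 1 was far below the rest and the groups overlapped (log2 -0.55 ± 0.29, SE, limma adjusted p = 0.326), and without TBI 1 the difference was -0.23. Rab27a had 40.9, 43.6, 44.6 and 44.1 FPKM in WBC TBI and 47.7, 40.5, 52.1 and 39.3 FPKM in WBC sham, within each other's range. Its difference of -0.04 ± 0.10 (SE) was 0.11 after quantile normalization. Rab3a, at 4.74 ± 1.18 FPKM in WBC TBI and 4.13 ± 1.07 FPKM in WBC sham (SD, n = 4 each), overlapped as well.

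No tested member of the late endosome or of lysosome-related organelles had an unadjusted p under 0.05 in WBC. Rab7a had 51.9, 68.6, 75.2 and 73.1 FPKM in WBC TBI, against 75.6, 83.1, 73.7 and 80.6 FPKM in WBC sham. The groups overlapped (log2 -0.23 ± 0.12, SE, limma adjusted p = 0.325). The difference was -0.11 without TBI 1 and 0.01 after quantile normalization. Rab24 (113 ± 13.7 FPKM in TBI, 104 ± 8.21 in sham), Rab32 (2.83 ± 0.694 in TBI, 2.46 ± 0.512 in sham) and Rab7b (1.15 ± 0.128 in TBI, 0.860 ± 0.30 in sham, SD, n = 4 each) had estimates above 0 with overlapping groups. These 3 estimates moved by more than 1.5 times with single libraries or scaling: Rab24 ran from 0.04 to 0.42, Rab32 from 0.08 to 0.31 and Rab7b from 0.13 to 0.45 over the alternatives. Rab7b, at 0.860 FPKM in sham, passed the filter of 1 FPKM only through its TBI libraries. The filter thus favoured its estimate above 0. Rab38, a partner of Rab32 in the biogenesis of these organelles, had 0.425 to 0.759 FPKM in WBC TBI and 0.186 to 0.545 FPKM in WBC sham and was not tested. The member higher in TBI was Rab23, a negative regulator of Hedgehog signalling, with 3.14, 3.90, 3.41 and 3.73 FPKM in WBC TBI, against 2.80, 3.01, 2.53 and 2.64 FPKM in WBC sham. Its groups did not overlap (log2 0.32 ± 0.10, SE, limma adjusted p = 0.161).

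**Figure D4:**
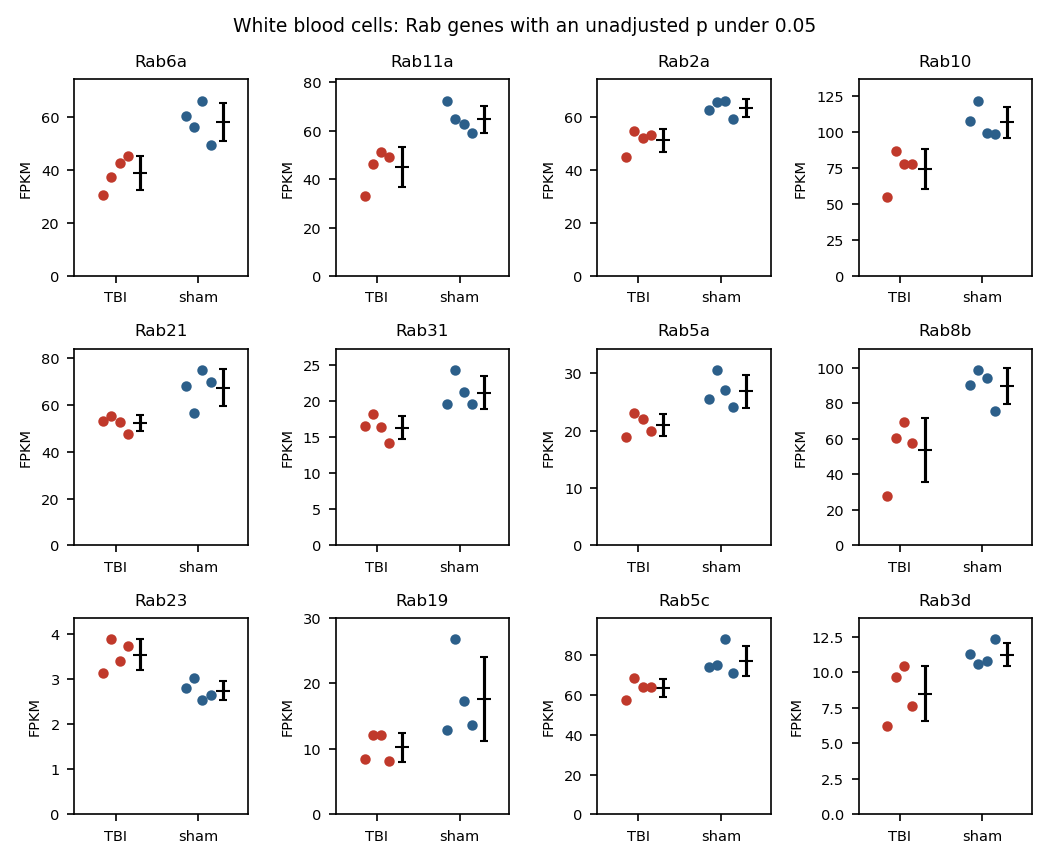
FPKM of the 12 Rab genes with an unadjusted p under 0.05 in WBC, 4 TBI libraries (red, left) and 4 sham libraries (blue, right) per panel in replicate order, with the mean and SD beside them. In all 12 panels the groups do not overlap. Rab23 is higher in TBI and the other 11 are lower, with TBI 1 lowest for Rab6a, Rab11a, Rab2a, Rab10, Rab5a, Rab8b, Rab5c and Rab3d.

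Promoter sequences are shown for the 4 members with the largest size of log2 difference among those with an unadjusted p under 0.05 and an entry in the RefSeq promoter table (44 of 54 members matched by symbol). Each is the 250 bases before the annotated start, 5′ to 3′ on the gene's own strand, in build GRCr8, with GC boxes (GGGCGG on either strand) in capitals. Rab8b is at chr8:76417549-76417798 (minus strand), Rab11a at chr8:74141685-74141934 (minus), Rab6a at chr1:164369783-164370032 (plus) and Rab19 at chr4:69123712-69123961 (plus).
Rab8b: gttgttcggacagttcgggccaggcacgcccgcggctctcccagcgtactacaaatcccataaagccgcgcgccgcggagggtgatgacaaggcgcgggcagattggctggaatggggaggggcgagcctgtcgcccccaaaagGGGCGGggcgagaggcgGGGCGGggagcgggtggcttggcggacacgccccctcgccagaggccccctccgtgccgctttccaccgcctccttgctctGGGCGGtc
Rab11a: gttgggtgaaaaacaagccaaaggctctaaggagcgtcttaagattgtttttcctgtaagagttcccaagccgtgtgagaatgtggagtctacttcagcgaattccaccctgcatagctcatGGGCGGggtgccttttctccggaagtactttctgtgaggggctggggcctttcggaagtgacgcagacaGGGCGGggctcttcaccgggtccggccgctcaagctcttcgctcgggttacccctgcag
Rab6a: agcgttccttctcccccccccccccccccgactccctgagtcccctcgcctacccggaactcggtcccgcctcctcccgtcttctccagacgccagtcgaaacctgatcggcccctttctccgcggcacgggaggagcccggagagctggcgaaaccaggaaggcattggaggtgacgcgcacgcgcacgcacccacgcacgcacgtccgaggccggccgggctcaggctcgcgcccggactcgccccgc
Rab19: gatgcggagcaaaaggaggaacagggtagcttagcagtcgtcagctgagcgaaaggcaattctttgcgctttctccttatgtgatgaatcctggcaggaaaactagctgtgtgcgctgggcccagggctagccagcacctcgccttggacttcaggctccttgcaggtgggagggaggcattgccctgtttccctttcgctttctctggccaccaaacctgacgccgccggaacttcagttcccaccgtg
Rab8b holds 3 GC boxes, Rab11a 2, and the other 2 windows none. Over the 44 windows, 34 (77.3%) hold a GC box, where 32.4% of all 27457 windows in the table do. The motif GATAA, the core read by GATA factors, is in 3 (6.82%), where 23.2% of all windows hold it on either strand. The E box CACGTG is in 3 (6.82%, against 5.79%), and the cAMP response element TGACGTCA in 1 (2.27%, against 1.70%). GC content moves with these shares: its median was 63% in the Rab windows and 52% in all windows. None of the 4 printed windows holds any of the other 3 motifs. A match is a run of letters and no measured binding site.

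In CA1 the family lay close to its sham level. Rab FPKM summed to 2837 ± 63.0 in TBI and 2874 ± 88.1 in sham (SD, n = 4 each), with overlapping groups. No member passed the adjusted threshold in limma (0 of 46, where 0.00683% of all rows passed), with adjusted p between 0.891 and 0.999. At an unadjusted p under 0.05, 2 of 46 members were higher in TBI (2.54% of all rows were) and 0 of 46 lower (2.6% of all rows were). The groups overlapped for every tested member except Rab35, lower in TBI (1.6% of all rows did not overlap and were lower, 1.28% did not overlap and were higher). The median log2 difference was -0.01, as it was over all rows tested, and 20 members lay above 0 and 26 below. The count changed with single libraries. Without sham 1 it was 9, of which 3 were higher and 6 lower. Without TBI 3 or TBI 4 it was 1, and without TBI 2 or sham 2 it was 0. Shares of all rows called in those fits are not given here, so these counts cannot be set against them.

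The 2 members with a p under 0.05 belong to regulated secretion. Rab26, found on secretory and synaptic vesicles, had 38.2, 51.1, 45.9 and 55.4 FPKM in CA1 TBI, against 39.1, 33.0, 37.6 and 39.9 FPKM in CA1 sham. TBI 1 lay inside the sham range (log2 0.34 ± 0.12, SE, limma adjusted p = 0.891). Rab3b had 29.1, 40.5, 42.0 and 34.3 FPKM in CA1 TBI, against 32.4, 21.5, 28.7 and 28.3 FPKM in CA1 sham, again with TBI 1 inside the sham range (log2 0.39 ± 0.15, SE, limma adjusted p = 0.891). Rab3a, far more abundant, averaged 502 ± 25.6 FPKM in CA1 TBI and 501 ± 15.5 FPKM in CA1 sham (SD, n = 4 each). Rab3c split by replicate number instead of by group, with 35.3, 51.7, 52.3 and 33.6 FPKM in CA1 TBI and 32.6, 57.0, 51.4 and 32.4 FPKM in CA1 sham, so that replicates 2 and 3 were high in both. Rab27b had 10.1, 8.65, 11.0 and 9.07 FPKM in CA1 TBI and 9.77, 15.1, 11.1 and 11.0 FPKM in CA1 sham, where sham 2 was the highest (log2 -0.25 ± 0.13, SE, and -0.13 without sham 2). Rab27a, at 3.65 ± 0.277 FPKM in CA1 TBI and 3.67 ± 0.413 FPKM in CA1 sham (SD, n = 4 each), differed by less than the spread between replicates.

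Rab35, which acts in recycling from endosomes, had 30.4, 30.7, 30.9 and 31.4 FPKM in CA1 TBI, against 32.3, 32.6, 34.9 and 32.6 FPKM in CA1 sham. The groups did not overlap but the difference was small, -0.10 ± 0.05 on the log2 scale (SE, limma adjusted p = 0.891). Rab8b, the member with the widest difference in WBC, had 20.1, 17.1, 22.0 and 17.9 FPKM in CA1 TBI and 18.5, 30.9, 24.4 and 20.2 FPKM in CA1 sham, with overlap (log2 -0.26 ± 0.16, SE, and -0.12 without sham 2). Rab40b and Rab40c, which carry a SOCS box and serve ubiquitin ligases, had differences of -0.17 ± 0.10 and -0.11 ± 0.07 in CA1 (SE), with ranges of -0.22 to -0.09 and -0.15 to -0.06 over the alternatives. Rab14 and Rab39a had -0.07 and -0.20, and Rab2a -0.09. Above 0 lay Rab23, Rab36, Rab21, Rab38, Rab24 and Rab33a, at 0.05 to 0.14. Rab32 averaged 0.599 FPKM in TBI and 0.465 FPKM in sham, too low to be tested. The compartment markers Rab5a, Rab7a and Rab11a differed by -0.03, -0.01 and 0.0003, each less than its SE of 0.11, 0.07 and 0.05. Endothelial markers had estimates below 0 in CA1 TBI for 10 of 11 tested (summed 120 to 129 FPKM in TBI and 123 to 186 FPKM in sham). Of these, 5 were lower at an unadjusted p under 0.05, where 2.6% of all rows were. Pyramidal neuron markers lay below 0 in 10 of 12 tested and choroid plexus markers above 0 in 9 of 10. Of all 14637 CA1 rows, 7807 lay below 0 and 6830 above. At that p, 1 pyramidal neuron marker was lower, and no choroid plexus marker was lower or higher. The part of these cell types in the Rab values was not tested.

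**Figure D5:**
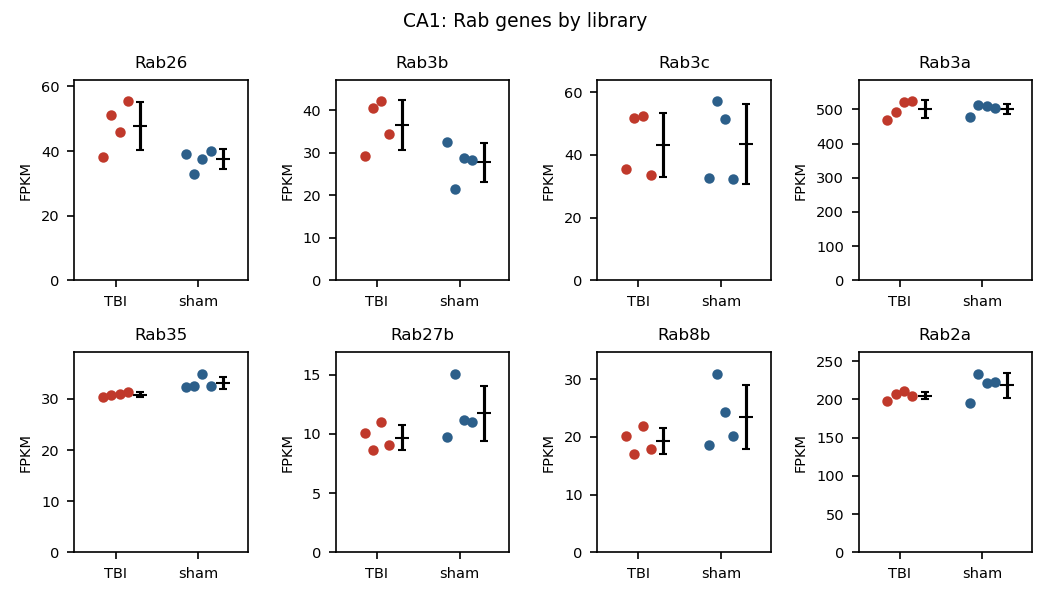
FPKM of 8 Rab genes in the CA1 libraries, 4 TBI (red, left) and 4 sham (blue, right) per panel in replicate order, with the mean and SD beside them. Rab26 and Rab3b are higher in TBI on average with TBI 1 inside the sham range, Rab3c is high in replicates 2 and 3 of both groups, and Rab35 is the member whose groups do not overlap.

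Whether the injury effect differed between blood and hippocampus was tested for 35 members with an interaction term. None passed (0 of 35, where 0.41% of all 7570 genes did). At an unadjusted p under 0.05, 6 members had a lower effect in WBC than in CA1 (12.7% of all genes had) and 1 a higher effect (7.09% of all genes had). The smallest p belonged to Rab21 (-0.42 ± 0.11, SE, limma adjusted p = 0.0901), Rab11a (-0.54 ± 0.16, SE, limma adjusted p = 0.0950) and Rab31 (-0.39 ± 0.12, SE, limma adjusted p = 0.107), each the WBC effect minus the CA1 effect on the log2 scale. After quantile normalization the value of Rab21 was -0.22 (limma adjusted p = 0.366). Without WBC TBI 3 Rab11a passed (-0.61, limma adjusted p = 0.0498). In the other direction were Rab23 at 0.23, Rab7b at 0.40 and Rab3a at 0.17 (limma adjusted p = 0.236, 0.366 and 0.728). The value of Rab7b was favoured by the filter in WBC, as given above.

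The regulators of the family were read from lists of GDI and prenylation factors, exchange factors, TBC proteins and effectors. These lists share genes. Dennd5a stands among the exchange factors and the effectors, and Rabif among the exchange factors and the GDI and prenylation factors. None passed the adjusted threshold in either tissue. In CA1 the unadjusted p was under 0.05 for 1 of 21 exchange factors and for 0 of 7 GDI and prenylation factors, 0 of 22 TBC proteins and 0 of 37 effectors, where 2.54% of all rows were higher and 2.6% lower. The gene among the exchange factors was Rab3il1, an exchange factor for Rab3a and Rab8, at 3.51 ± 0.125 FPKM in CA1 TBI and 4.74 ± 0.684 FPKM in CA1 sham (SD, n = 4 each), without overlap (log2 -0.38 ± 0.10, SE, limma adjusted p = 0.891). It was also lower in WBC, at 21.1 ± 10.4 FPKM in TBI and 47.9 ± 6.33 FPKM in sham (SD, n = 4 each), again without overlap (log2 -1.30 ± 0.35, SE, limma adjusted p = 0.138). The other CA1 regulators with the smallest p of their list were Rabep1 at -0.14, Rilp at -0.16, Trappc9 at 0.10, Rabif at 0.14, Rabggta at -0.08, Tbc1d25 at -0.08 and Grtp1 at -0.21 on the log2 scale.

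In WBC the effectors split into 7 lower and 3 higher of 27 tested at an unadjusted p under 0.05, and the exchange factors into 5 lower and 2 higher of 23, where 12.5% of all rows were lower and 7.82% higher. Dennd5a is counted among the lower ones of both lists. Over all tested members, 15 of 27 effectors and 12 of 23 exchange factors had estimates above 0, with medians of 0.03 and 0.01. Groups did not overlap for 4 effectors lower and 2 higher, and for 5 exchange factors lower and 5 higher. Over all rows this held for 8.63% lower and 5.61% higher. The members named here by their p are all lower ones. Eea1, the endosomal tether that binds Rab5, had 3.62 to 5.23 FPKM in WBC TBI and 6.12 to 6.80 FPKM in WBC sham (log2 -0.54 ± 0.12, SE, limma adjusted p = 0.127). Gripap1, a recycling endosome effector, had 22.0 to 31.2 FPKM in WBC TBI and 32.6 to 47.4 FPKM in WBC sham (log2 -0.58 ± 0.15, SE, limma adjusted p = 0.132). The exchange factor Dennd2c had 8.34 ± 2.16 FPKM in WBC TBI and 14.4 ± 1.74 FPKM in WBC sham (SD, n = 4 each; log2 -0.79 ± 0.20, SE, limma adjusted p = 0.132). None of these 3 overlapped between groups. Of 21 TBC proteins 2 were lower and 1 higher at that p, led by Tbc1d17 (-0.36, and -0.20 after quantile normalization) and Tbc1d10b (-0.22). Of 6 GDI and prenylation factors 2 were higher and none lower at that p. Rabggtb, the catalytic subunit of Rab geranylgeranyl transferase, had 38.7 ± 4.76 FPKM in WBC TBI and 31.5 ± 2.37 FPKM in WBC sham (SD, n = 4 each). Its log2 difference was 0.29 ± 0.10 (SE, limma adjusted p = 0.174), and the groups did not overlap.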

How the data were processed

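Poly-A RNA of CA1 and WBC was sequenced in 16 libraries. The authors deposited FPKM in 1 table per tissue, with a status for each value. Per the submitters' processing notes the tools were TopHat, TopHat2, Bowtie, Bowtie2, Cufflinks and Cuffdiff and the build rn5, with versions and normalization not given in the sources used here. The strand setting is likewise not given, so overlapping genes on opposite strands may share fragments. FPKM holds no counts. The ratios between the smallest values gave no clear steps, which leaves the depth unknown, and intervals for counting error cannot be given. Promoters came from the RefSeq table of build GRCr8, which differs from that of the files, so no positions of file rows are given.

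Of several rows with the same symbol, that with the highest mean was used. Percentiles are ranks among single symbols by the sham mean. Rows with a mean of at least 1 FPKM over the 8 libraries of a tissue and status OK in all were tested on log2(FPKM + 0.5), which understates changes of low genes, with limma 3.58.1 (lmFit, eBayes with trend, 2-sided), adjusted by Benjamini-Hochberg over all rows, with a threshold of 0.05. The TBI effects of the tissues were set against each other in a model with a mean for each of the 4 groups and an interaction contrast. p-values measure the spread between these samples, which the labels do not state to be separate rats. The check of equal numbers is in the closing section.

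Members and lists were chosen with earlier results of these data known. Named in each tissue are the 8 tested members per direction with the smallest p, 8 members fixed in advance (Rab3a, Rab5a, Rab7a, Rab11a, Rab27a, Rab27b, Rab32 and Rab38), the 10 highest members, the 5 per direction with the largest difference in percentile between tissues, 3 per direction for the interaction, and 2 regulators per list. A regulator chosen this way is left unreported. Rab19, Rab5c and Rab3d in WBC, and paralogs named for contrast, are outside the rule and were picked with their values in view. Alternatives were a pseudocount of 0.1 or 1, leaving out the filter, a minimum of 5 FPKM, median-ratio scaling, quantile normalization, sample weights, robust variances, limma without trend, a replicate block, rows of every status, and leaving out each library. Regulators and single genes of the interaction were put through them after the data were seen. The fits were tested on simulated data. Scripts ran in Python 3.11.15 (pandas 2.3.3, numpy 2.4.6, scipy 1.17.1, matplotlib 3.10.9) and R 4.3.3.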

Additional observations from a re-analysis of the deposited data

Results flagged for a closer look

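In 2 of 94 groups of 4 libraries examined (the named Rab genes and the Rab FPKM sum of each tissue), 1 library stood apart from the other 3 by Dixon's criterion, which chance meets in about 1 of 20 groups. Rab35 in CA1 sham was highest in sham 3, at 34.9 FPKM where the group mean was 33.1 FPKM. Rab4b in WBC TBI was highest in TBI 1, at 53.9 FPKM where the group mean was 47.9 FPKM.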

How the results depend on the processing

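No alternative brought a Rab gene past the adjusted threshold within CA1 or within WBC. The number of Rab genes at an unadjusted p under 0.05 stayed within 1.5 times in WBC under every alternative (11 to 13 as each library was left out) and did not in CA1. There the main count of 2 became 4 with no filter on low values, 5 with sample weights and 0 to 9 as each library was left out (0 without TBI 2 or sham 2, 1 without TBI 3 or TBI 4, 9 without sham 1). The cause was not tested. With a minimum of 5 FPKM in WBC 11 of 29 members were lower (37.9%), where 15.8% of 8794 rows were. Shares of all rows called are not given here for the other alternatives. The count past the threshold for the interaction was 0 to 1 as each library was left out, with Rab11a passing without WBC TBI 3, and 0 otherwise. The sign of small differences turned in a few genes, none of them called. In CA1 Rab27a was 0.00218 with median-ratio scaling, 0.00614 with quantile normalization and 0.022 with sample weights, and under quantile normalization Rab3a was -0.060 and Rab11a -0.00380. In WBC under quantile normalization Rab7a was 0.015 and Rab27a 0.11. As each library was left out, the CA1 differences ran from -0.13 to 0.042 for Rab5a, -0.061 to 0.035 for Rab7a, -0.063 to 0.037 for Rab27a, -0.022 to 0.031 for Rab3a, -0.033 to 0.023 for Rab11a and -0.0051 to 0.097 for Rab33a, and the WBC differences from -0.016 to 0.067 for Rab4b, -0.020 to 0.18 for Rab2b, -0.10 to 0.032 for Rab27a and -0.094 to 0.27 for Rab30. Deviations from the group means were weakly correlated between samples of equal number. The correlations were 0.0660 to 0.195 between TBI and sham in CA1, -0.0505 to 0.173 in WBC and 0.0476 to 0.202 between tissues. Samples of unequal number were not compared, so this check cannot say whether equal numbers are pairs. The labels name no pairs, and the main fits took none. With the replicate block the count in CA1 was 1 and in WBC 12, and none passed the adjusted threshold. The unknown depth limits what can be said of members under 1 FPKM.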
